A study of Citrus trifoliata with 2 samples.

Results

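Actins, the proteins that bind and remodel actin filaments, formins, myosins and the Rac-like GTPases upstream of them were compared between buds of a precocious, early-flowering trifoliate orange and buds of the wild type. Members were chosen by name: each is a unigene, that is, an assembled transcript model with no genome position, whose Swiss-Prot best hit names one of these proteins. The name rule matched 226 of the 35775 unigenes in the deposited table. Of these, 41 matched only through a piece of an unrelated word and were set apart, 37 of them through "forming" or "transforming" and the other 4 as caltractin or dynactin. The 185 members that were left shared 100 Swiss-Prot entries, so several unigenes can be fragments or copies of one gene and a count below is of unigenes.

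The series set out to find variation across the genome between the precocious mutant and the wild type of Citrus trifoliata, a deciduous relative of the cultivated oranges. The mutant group was the cultivar labelled precocious trifoliate orange and the wild-type group was the normal trifoliate orange, with 1 library each. Both came from untreated trees aged 2 years, and both held the terminal bud with the 5 buds that follow it on spring shoots, taken once the shoot tip had been shed at flower initiation. The labels name neither the mutated locus nor the number of trees behind each library.

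Plant cells build actin filaments from a pool of actin monomers held by profilin. Formins nucleate and elongate unbranched filaments and the ARP2/3 complex nucleates branches, while villins and fimbrins bundle filaments, actin-depolymerizing factors sever them and myosins carry organelles along them. Rac-like GTPases sit above this machinery and direct the polar growth of plant cells.

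In units of 1000 reads on unigenes, depth was 10037 for the mutant and 9995 for the wild type. Library differences were expressed as log2((mutant RPKM + 1)/(wild-type RPKM + 1)), where RPKM is reads scaled to unigene length and library total, and a unigene was kept when its RPKM reached at least 1 in at least 1 library. Of the 185 members, 180 were kept. Folds of single unigenes were taken from raw reads and library totals, with an exact 95% Clopper-Pearson interval that covers counting error only. No difference has a replicate check, so each compares these libraries and not the genotypes. Because each bud holds many cell types, fewer cells of a type and less RNA per cell cannot be told apart. Markers of the labelled tissue were present, with 49 unigenes named for shoot meristem or primordium regulators such as SHOOT MERISTEMLESS, knotted-1 and WUSCHEL, of which 46 were kept. Their reads summed to 13882 (mutant) and 13710 (wild type). The words KNAT1 and AINTEGUMENTA matched no plant best-hit name. Such genes can be listed under other names, so their absence was not shown.

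Most of the actin machinery was at nearly the same level in both libraries, and the differences past 2-fold fell on few unigenes, most of them with few reads or a distant best hit. Of the 180 members kept, 7 passed the 2-fold rule on the higher side in the mutant library, or 3.89%, against 8.61% of all unigenes kept. On the lower side were 3 members, or 1.67%, against 5.31% of all unigenes kept. The members' shares on both sides were thus below the background. The ratio was above 0 for 112 members, or 62.2%, against 53.8% of all unigenes kept. The median log2 ratio of the members was 0.09 and that of all unigenes kept was 0.05, and the members' ratios ran from -2.29 to 2.37. The counting interval lay above 1 for 51 members, or 28.3%, beside 19.8% of all unigenes, and below 1 for 28 members, or 15.6%, beside 14.4%.

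The 2-fold calls lay mostly among members with few reads. Of the 128 members with at least 100 reads over both libraries, 2 were higher by the same rule, or 1.56%, against 1.86% of all unigenes of that depth. None of the 128 was 2-fold lower, while 0.517% of all unigenes of that depth were. Among these deeper members the interval lay above 1 for 38, or 29.7% beside 24.6% of all, and below 1 for 18, or 14.1% beside 19.3% of all. Summed over all 185 members, the mutant library held 66832 reads and the wild-type library 63536, a ratio of 1.05 (1.04 to 1.06).

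**Figure D1:**
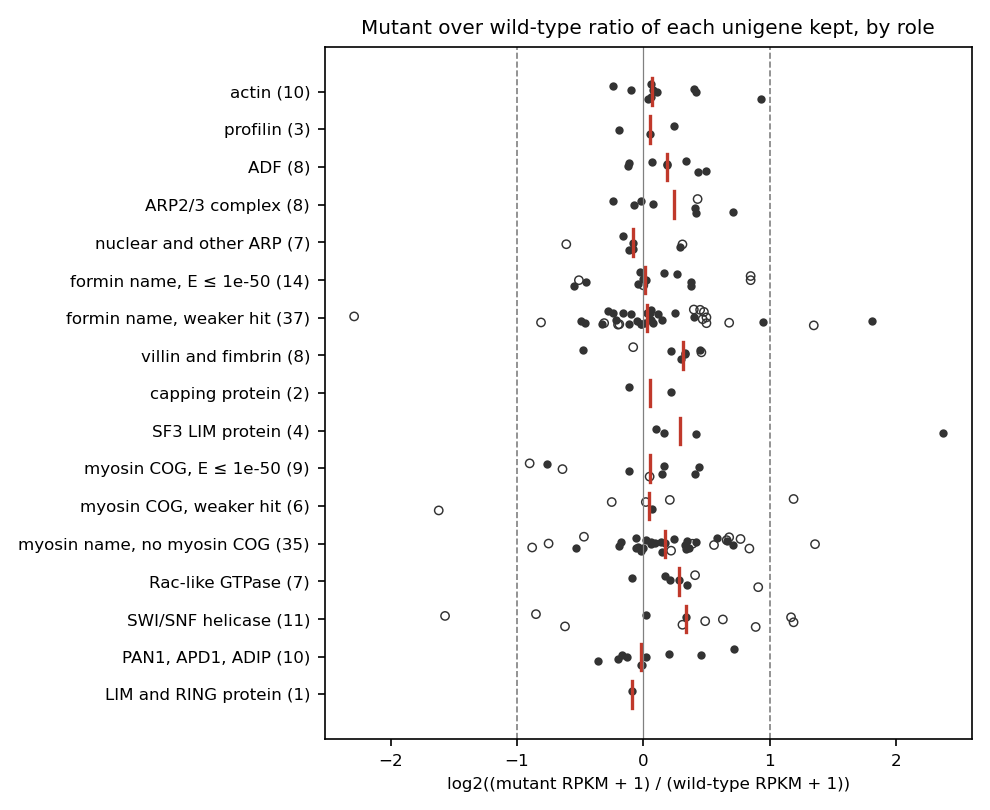
Log2 ratio of RPKM + 1 (mutant over wild type, x axis) of each of the 180 unigenes kept, by role on the y axis with the number of unigenes in parentheses. Filled points have at least 100 reads over both libraries, open points fewer, red ticks are medians and dashed lines mark 2-fold. Most points lie near 0 and the points farthest out, from -2.29 to 2.37, are mostly open.

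Actin itself, the subunit of the filament, was among the more abundant members and its deepest unigenes were nearly equal. The 10 actin unigenes summed to 5235 mutant and 4832 wild-type reads (1.08-fold, 1.04 to 1.12), and their median log2 ratio was 0.07. Actin-101 (Unigene8808) had the most reads, 1177 against 1126. Actin-7, the isoform tied to vegetative growth and hormone response in Arabidopsis, had an RPKM of 142 in mutant and 134 in wild-type buds for its longer unigene (Unigene7408). The longest actin unigene, Unigene3219, had 481 and 467 reads. One actin stood apart: Actin-1 (Unigene12545) had 214 mutant and 106 wild-type reads, a 2.01-fold difference (1.59 to 2.56). Its log2 ratio of 0.93 with the pseudocount stayed just under the 2-fold rule. A further unigene named only Actin (Unigene10417) had 516 against 379 reads, 1.36-fold higher (1.19 to 1.55), and the intervals of the other 8 included 1.

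Profilin, which binds actin monomers and feeds them to formins, gave the highest RPKM of all members. Profilin-1 (Unigene35531), a fragment of 275 bases, had an RPKM of 327 in mutant and 372 in wild-type buds, from 902 and 1023 reads. Its fold of 0.878 had an interval of 0.802 to 0.961, so the mutant library was slightly lower. The longest profilin unigene (Unigene6435) had 238 against 200 reads and Profilin-3 (Unigene16531) had 338 against 324, and both intervals included 1.

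Actin-depolymerizing factors (ADFs), small proteins that sever and disassemble filaments, were also abundant. Their 8 unigenes summed to 6197 mutant and 5901 wild-type reads, and the median log2 ratio was 0.19. The most abundant by reads, Unigene16972, had 1715 against 1862 reads, a fold of 0.917 (0.858 to 0.98). ADF5 showed the widest gap of the group, with 491 mutant and 344 wild-type reads (Unigene7509, 1.42-fold higher, 1.24 to 1.64). In Arabidopsis, ADF5 is known for bundling filaments where most ADFs sever them. The intervals of 4 ADF unigenes lay above 1, or 50%, beside 24.6% of all unigenes with at least 100 reads. That of 1 lay below, or 12.5% beside 19.3%, and none passed 2-fold.

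All 7 subunits of the ARP2/3 complex, the nucleator of branched filaments, were found among 8 unigenes. Summed reads were 1979 (mutant) and 1766 (wild type), a small excess (1.12-fold, 1.05 to 1.19). The paired actin-related subunits that seed the branch, ARP2 and ARP3, were close to equal, with 353 against 357 reads for ARP2 (Unigene12173) and 737 against 692 for ARP3 (Unigene13065). Wider gaps were found in smaller subunits: ARPC4 (Unigene143) had 303 against 181 reads, 1.67-fold higher (1.38 to 2.02), and ARPC3 (Unigene13090) 165 against 121, 1.36-fold higher (1.07 to 1.73). No subunit passed 2-fold. The capping protein subunits, which block the growing filament end, were nearly equal: alpha (Unigene11593) had 178 against 151 reads and beta (Unigene855) 139 against 150.

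**Figure D2:**
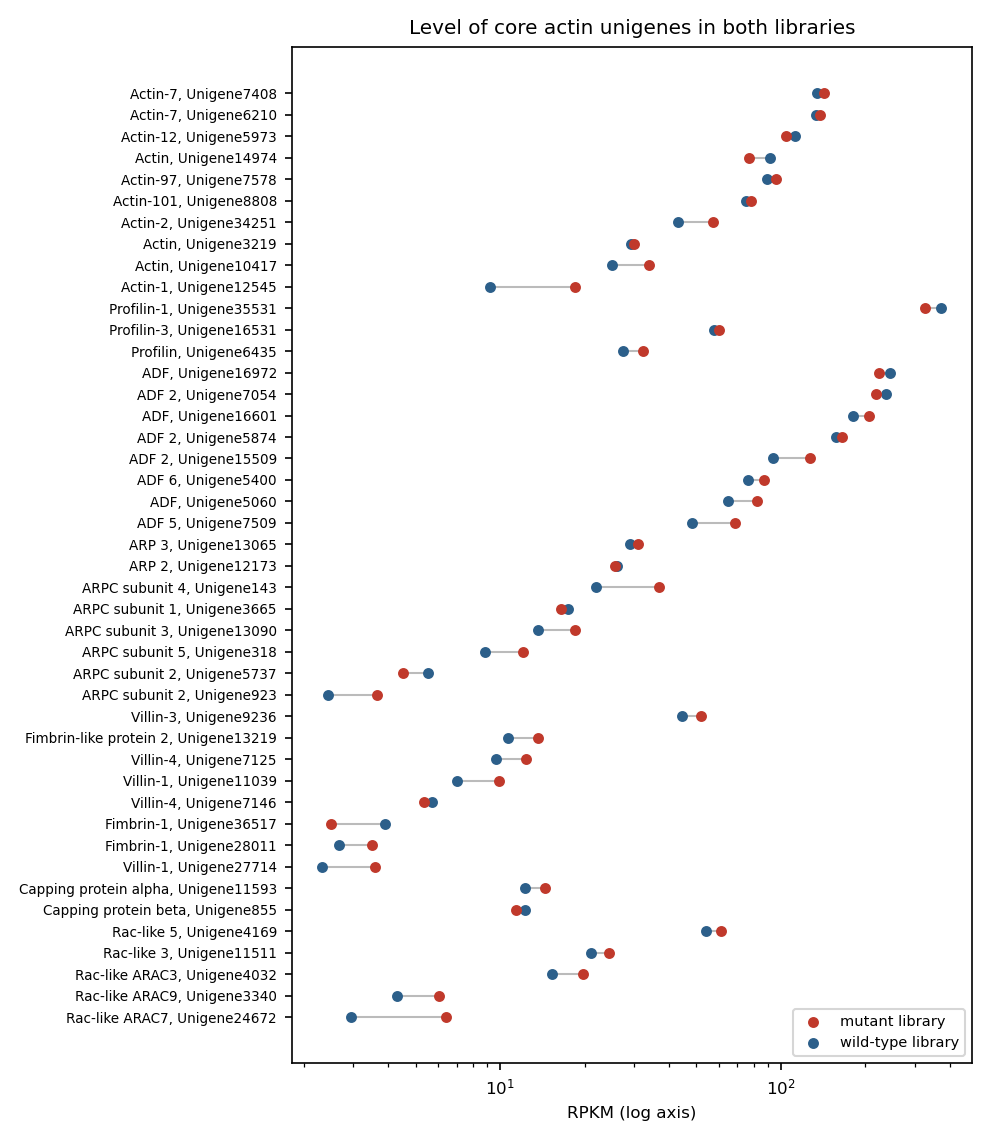
RPKM in the mutant and wild-type libraries (x axis, log scale) of the actin, profilin, ADF, ARP2/3, capping protein, villin, fimbrin and Rac-like GTPase unigenes listed on the y axis, 1 point per library. The points of most pairs lie close together, with wider gaps for Actin-1, ARPC4 and ARAC7, and Profilin-1 lies farthest right at 327 and 372.

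Bundling proteins had slightly more reads in the mutant library. The 8 villin and fimbrin unigenes summed to 3193 mutant and 2659 wild-type reads (1.2-fold, 1.14 to 1.26), with a median log2 ratio of 0.31, and none passed 2-fold. Villin-3 (Unigene9236) carried most of the reads, 1983 against 1686, and was 1.17-fold higher (1.1 to 1.25). Villin-1 (Unigene11039) had 334 against 235 reads (1.42-fold, 1.19 to 1.68) and Villin-4 (Unigene7125) 362 against 281 (1.28-fold, 1.09 to 1.5). In Arabidopsis, villin 1 bundles filaments but lacks the calcium-dependent severing of villin 3. Fimbrin-like protein 2 (Unigene13219) had 302 against 234 reads, 1.29-fold higher (1.08 to 1.53). The unigenes named Fimbrin-1 did not move together. Unigene36517 had 69 mutant and 107 wild-type reads, 1.56-fold lower (1.14 to 2.14). Unigene28011 had 94 and 71, with an interval of 0.958 to 1.82. They lie in different stretches of the unigene numbering, whose directions differ, as described below.

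Among the 2-fold calls, the widest gap with a close best hit was found in the plant LIM proteins, small filament bundlers whose best hit here is the sunflower pollen-specific protein SF3. Unigene11200 had 184 mutant and only 28 wild-type reads, an RPKM of 19.6 against 3.0. The mutant library was 6.54-fold higher, and counting error allows 4.38 to 10.1. The other 3 unigenes with this hit were close together: Unigene17528 had 706 against 657 reads, Unigene9830 379 against 336, and Unigene3845 452 against 333 (1.35-fold, 1.17 to 1.56). The name SF3 is that of the best-hit sunflower protein and does not place these transcripts in pollen. Of the words chosen for pollen and anther, only "pollen-specific" found unigenes, 8 in all, of which 4 are these SF3 unigenes. Their 4 non-SF3 counterparts summed to 2022 mutant and 1401 wild-type reads with a median log2 ratio of -0.36. Only 1 of these 4 had at least 100 reads, and its RPKM of 486 (mutant) and 326 (wild type) made up most of their summed 496 and 342. The words anther-specific, exine and tapetum found none. The part of pollen or anther RNA in the SF3 gap was not tested. The longest and deepest LIM member (Unigene9207), a LIM and RING finger protein named after a fission yeast sequence, had 1134 against 1200 reads.

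**Figure D3:**
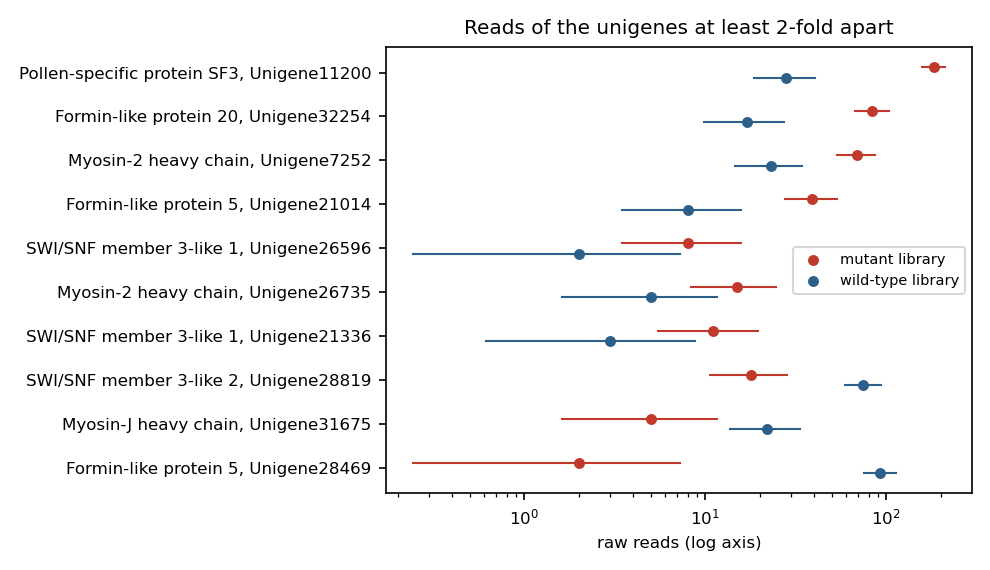
Raw reads (x axis, log scale) in the mutant and wild-type libraries of the 10 unigenes that differed by 2-fold or more on the RPKM + 1 scale, with exact 95% Poisson intervals as bars. The SF3 unigene is the deepest, at 184 against 28 reads, and the widest gap is the formin-named unigene at 2 against 93.

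Formins were the largest named family, with 53 unigenes, 51 of them kept, and their median log2 ratio was 0.02. The interval lay above 1 for 11, or 21.6% beside 19.8% of all unigenes kept, and below 1 for 9, or 17.6% beside 14.4%, shares near the background. By the 2-fold rule 2 were higher, or 3.92% beside 8.61%, and 1 was lower, or 1.96% beside 5.31%. Most of these names rest on distant hits: 14 unigenes matched a formin with an E-value of at most 1e-50, a limit chosen after the data were seen, and 39 matched more weakly. The distinction matters because formins hold long proline-rich stretches that unrelated proteins also match.

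The 14 close formins summed to 3565 mutant and 3220 wild-type reads (1.1-fold, 1.05 to 1.16), their median log2 ratio was 0.01, and none passed 2-fold. The deepest was named for FH6 (Unigene4122), with 1363 against 1119 reads, 1.21-fold higher (1.12 to 1.31). FH1, the membrane-anchored formin that nucleates filaments at the cell cortex in Arabidopsis, was split: Unigene1787 had 427 against 323 reads (1.32-fold, 1.14 to 1.53) and Unigene10852 had 539 against 547. Both close unigenes of FH14, a formin that also binds microtubules in Arabidopsis, were lower in the mutant library. Unigene13470 had 145 against 204 reads (1.41-fold lower, 1.14 to 1.76), and Unigene1617 had 68 against 103 (1.52-fold lower, 1.11 to 2.1). FH5, which in Arabidopsis acts at the cell plate and in pollen tubes, had 36 against 12 reads in Unigene27993 (2.99-fold higher, 1.52 to 6.31) and 113 in each library in the longer Unigene12806. The log2 ratio of Unigene27993 was 0.85, under the 2-fold rule, because its low RPKM (2.04 against 0.683) weighs little against the pseudocount. These close formins were named after their values were seen.

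All 3 formin-named unigenes past 2-fold were distant hits. Unigene28469, named for rice FH5 at an E-value of 8e-09, had 2 mutant and 93 wild-type reads, which made the mutant library 46.7-fold lower with an interval of 12.6 to 391. Unigene21014, with the same name at 4e-07, went the other way, with 39 mutant and 8 wild-type reads (4.85-fold higher, 2.24 to 12). Unigene32254, named for FH20 at 7e-18, had 84 against 17 reads (4.92-fold higher, 2.9 to 8.84). Whether any of these encodes a formin cannot be read from such hits. The 39 weak formin hits together were level, at 9918 against 9889 reads. Within them, the deepest (Unigene1394, rice FH5) had 1249 against 1337 reads and the longest (Unigene17139, FH14) 225 against 203. A short unigene named for FH20 (Unigene6269) came close to the rule, with 408 against 208 reads, 1.95-fold higher (1.65 to 2.32).

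Myosin names came with 52 unigenes, 50 of them kept, and every one had its best hit outside plants, mainly in the slime mould Dictyostelium and in animals. The COG annotation in the table (clusters of orthologous groups) called 16 of them myosin heavy chain. Of these, 10 also had an E-value of at most 1e-50, 9 of which were kept, and they summed to 6895 mutant and 6600 wild-type reads (1.04-fold, 1.01 to 1.08). Plant myosins fall in classes VIII and XI, and class XI motors carry organelles along actin bundles. The table does not give the class of these unigenes.

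The close myosins went in both directions, with 4 intervals above 1 and 4 below among the 9 kept. Each share was 44.4%, beside 19.8% above and 14.4% below among all unigenes kept. Among all unigenes with at least 100 reads, these shares were 24.6% and 19.3%. Unigene11475 (myosin-J of Dictyostelium) had the most reads of all myosins, 2876 against 3102, a fold of 0.923 (0.877 to 0.972). Unigene11217 (myosin-2) had 1669 against 1239 reads, 1.34-fold higher (1.25 to 1.44). Among long unigenes named for the same myosin-J entry, the order of the libraries was opposite: Unigene9741, of 4959 bases, had 167 mutant and 315 wild-type reads (1.89-fold lower, 1.57 to 2.3), and Unigene10660, of 5208 bases, had 182 and 120 (1.51-fold higher, 1.19 to 1.92). How reads shared between such copies were counted is not given, so values within this family are uncertain. Unigene30200 (myosin-I) had 8 against 26 reads, 3.26-fold lower (1.43 to 8.34). Like the lower Unigene29738 (myosin-J, 28 against 49), it lay in stretch 4 of the numbering, where most unigenes were lower, as described below. The other kept close myosins whose intervals excluded 1 lay in stretches 1 and 2. A further myosin-J fragment (Unigene22155) had 8 mutant and 0 wild-type reads, with a lower limit of the exact interval of 1.7-fold, and it was not kept.

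None of the close myosins passed 2-fold, and all 3 calls of the family lay among the other myosin names. Unigene31675, a myosin-J fragment of 322 bases, had 5 mutant and 22 wild-type reads (4.42-fold lower, 1.63 to 14.9). Unigene26735, a myosin-2 fragment of 273 bases, had 15 against 5 (2.99-fold higher, 1.03 to 10.5). Unigene7252, named myosin-2 at an E-value of 5e-08 and without the myosin heavy chain annotation, had 69 against 23 (2.99-fold higher, 1.84 to 5.02). In all, 36 myosin-named unigenes lacked that annotation. These names say little about a motor, since coiled-coil proteins can match the long myosin tail. Besides, 4 of the 36 name no myosin at all: both Unigene728 and Unigene4818 are named myosin heavy chain kinase B, Unigene27606 a myosin light chain kinase and Unigene3206 a tropomyosin-like protein. Unigene728 had 1133 against 743 reads, 1.52-fold higher (1.38 to 1.67), and the intervals of the other 3 included 1. The 35 kept of these 36 had a median log2 ratio of 0.17. Of their intervals, 13 lay above 1 (37.1%, beside 19.8% of all unigenes kept) and 5 below (14.3%, beside 14.4%). Among all unigenes with at least 100 reads, a depth that 24 of the 36 reached, these shares were 24.6% and 19.3%. Of the 13, Unigene20451, Unigene21575, Unigene21936, Unigene22300 and Unigene23828 lay in stretch 3 of the numbering, where most unigenes were higher, as described below. In stretch 4, where most were lower, Unigene33718 was among the 13 and Unigene33094 among the 5. The longest member of the family, Unigene564 (human myosin-11, 5974 bases), belonged to the 36 and had 143 against 232 reads, 1.63-fold lower (1.32 to 2.02).

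Rac-like GTPases, the switches that direct actin in polar growth, leaned slightly to the mutant library. Their 7 unigenes summed to 1705 mutant and 1482 wild-type reads (1.15-fold, 1.07 to 1.23), with a median log2 ratio of 0.28, and none passed 2-fold. Rac-like GTP-binding protein 5 (Unigene4169) had 725 against 641 reads (1.13-fold, 1.01 to 1.25) and ARAC3 (Unigene4032) 229 against 177 (1.29-fold, 1.05 to 1.58). ARAC7 (Unigene24672) had the widest gap, 57 against 26 reads, 2.18-fold higher (1.35 to 3.62), at a log2 ratio of 0.91.

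Regulators around these GTPases and other actin factors outside the name rule were taken from a word list of 44 unigenes, all kept, of which 4 passed 2-fold on the higher side and 4 on the lower. The shares of all unigenes kept that did so were 8.61% and 5.31%, and the median log2 ratio of the list was 0.02. The single unigenes of this list were chosen after their values were seen. Interactors of constitutive active ROPs (ICRs), scaffolds that bind the active GTPase, had a ratio above 0 in 7 of 8 unigenes, or 87.5% beside 53.8% of all unigenes kept, with 431 mutant and 238 wild-type reads in sum. The interval lay above 1 for 3 of the 8, or 37.5% beside 19.8% of all, and 1 passed 2-fold. ICR1 (Unigene2180) had 116 against 46 reads (2.51-fold higher, 1.77 to 3.61) and the longest ICR3 unigene (Unigene179) 177 against 96 (1.84-fold, 1.42 to 2.38). RopGEFs, which switch the GTPase on, were mixed over 10 unigenes, 2 of them 2-fold higher and 2 lower. The lower calls rested on 0 against 3 reads (Unigene28196) and 2 against 8 (Unigene29868), and 1 higher call on 9 against 2 (Unigene18648). The counting intervals of all these included 1. RopGEF1 unigene Unigene19872 had 118 against 41 reads (2.87-fold higher, 1.99 to 4.2), while the deepest, Unigene13364, had 756 against 845.

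Of the activators of the ARP2/3 complex, the SCAR and PIR unigenes were more often lower than higher in the mutant library by counting interval. SCAR unigenes had 2 of 4 intervals below 1 and 0 above, and PIR unigenes 2 of 4 below and 1 above. Of all unigenes kept, 14.4% had an interval below 1 and 19.8% above. Summed over the 4 PIR unigenes, reads were 848 (mutant) against 777 (wild type), a fold of 1.09 (0.985 to 1.2). SCAR2 (Unigene11082) had 1526 against 1814 reads, 1.19-fold lower (1.11 to 1.28). A SCAR3 unigene (Unigene13223) had 24 against 49 reads, 2.05-fold lower (1.23 to 3.49). NAP1 (Unigene3514), a partner of SCAR in the WAVE complex, had 965 against 925 reads. Of PIR, a further partner, the longest unigene (Unigene1346) had 812 against 701 reads, 1.15-fold higher (1.04 to 1.28). The 3 shorter PIR unigenes were lower, with 17 against 36 reads (Unigene21012), 16 against 27 (Unigene9341) and 3 against 13 (Unigene32875), the last past 2-fold. CHUP1, which ties chloroplasts to actin, gave the most reads of the list: Unigene6072 had 5504 against 6710, 1.22-fold lower (1.18 to 1.27). Of the 6 CHUP1 intervals, 4 lay below 1 (66.7%, beside 14.4% of all unigenes kept) and 1 above (16.7%, beside 19.8%). Unigene16938 had 1993 against 2152 reads (1.08-fold lower, 1.02 to 1.15), Unigene11774 49 against 136 (2.79-fold lower, 2.0 to 3.95) and Unigene22338 7 against 23 (3.3-fold lower, 1.37 to 9.1). The exception was Unigene27773, with 33 against 12 (2.74-fold higher, 1.38 to 5.82). Leaf mesophyll markers, mainly chlorophyll a-b binding proteins, summed to 32559 mutant and 34655 wild-type reads, a fold of 0.936 (0.922 to 0.95), and their part in the CHUP1 values was not tested.

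Actin-related proteins of the nucleus, most of them subunits of chromatin-remodelling complexes, were close to equal. Of 8 unigenes, 7 were kept, with a median log2 ratio of -0.08 and no 2-fold call. ARP4 (Unigene9025), the deepest, had 1229 against 1297 reads, and ARP6 (Unigene13977), a subunit of the SWR1 complex, had 546 against 608. ARP6 is known in Arabidopsis for keeping the floral repressor FLC expressed, and its fold here was 0.894 with an interval of 0.795 to 1.01. ARP7 (Unigene2957) was slightly higher, at 390 against 316 reads (1.23-fold, 1.06 to 1.43), and the longer ARP5 unigene (Unigene31479) lower, at 34 against 65 (1.92-fold, 1.25 to 3.0).

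The rule also took 11 SWI/SNF-type helicases, which carry "actin-dependent" in their names but act on chromatin. Their median log2 ratio was 0.34, with 2 calls higher (18.2%, beside 8.61% of all unigenes kept) and 1 lower (9.09%, beside 5.31%). The deepest and longest (Unigene13929) had 832 against 815 reads. Unigene28819 had 18 against 75 reads, 4.18-fold lower (2.48 to 7.44). The higher calls were fragments of 11 against 3 reads (Unigene21336) and 8 against 2 (Unigene26596), and both counting intervals included 1.

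The 12 remaining members were named for other actin-binding or actin-patch proteins, the capping subunits above among them, and none passed 2-fold. Here 7 carried the name of yeast PAN1, a scaffold of endocytic actin patches, and 2 that of actin patches distal protein 1, all with fungal best hits. These hits were distant, with E-values from 2e-21 to 6e-06. PAN1-named Unigene17402 had the most reads, 2063 against 2315, a fold of 0.887 (0.836 to 0.942). Unigene24835 showed the widest gap, 168 against 86 (1.95-fold higher, 1.49 to 2.55), and the longest, Unigene34177, had 141 against 158. Unigene2242, named for a rat afadin- and alpha-actinin-binding protein at an E-value of 2e-26, had 236 against 166 reads (1.42-fold higher, 1.16 to 1.74). The 10 members with fungal best hits had a median log2 ratio of -0.06, and all 862 unigenes with such hits one of 0.0. Whether any of them is fungal RNA was not tested.

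Where a unigene stood in the numbering went along with its direction. Unigene length drops abruptly at 7 places along the numbers, and taking every other drop as a boundary gave 4 stretches, between which the direction of the ratios of all unigenes differed. In stretch 1, with 62 members kept, 1 was 2-fold higher and 0 lower, where 2.65% and 0.195% of all unigenes were. In stretch 2, with 66 members, 1 was higher and 0 lower, where 0.991% and 0.902% of all were. In stretch 3 all 23 members kept had a ratio above 0, as did 86.4% of all unigenes kept there, with 4 calls higher and 0 lower, where 29.3% and 0.31% of all were. Their median log2 ratio of 0.68 was close to the 0.66 of every unigene in that stretch. In stretch 4, 1 of 29 members was higher and 3 were lower, where 0.819% and 23.1% of all were, and the medians were -0.20 for the members and -0.55 for all. A ratio above 0 was found there for 10 members, or 34.5%, beside 15.9% of all. Of the 10 calls, 8 lay in stretches 3 and 4, and their directions were those of most unigenes around them except for Unigene32254. The SF3 unigene Unigene11200 and the myosin-named Unigene7252 lay in stretches 2 and 1. Among members named above without a call, Unigene24672 (ARAC7), Unigene27993 (FH5), Unigene24835 (PAN1) and Unigene28011 (Fimbrin-1) lay in stretch 3. So did Unigene27606 (myosin light chain kinase), Unigene22155 (myosin-J, not kept) and the myosin names already placed there. Unigene36517 (Fimbrin-1), Unigene31479 (ARP5), Unigene35531 (Profilin-1) and Unigene34177 (PAN1) lay in stretch 4, as did the myosin names Unigene30200, Unigene29738 and Unigene33094. Each of these went in the direction of most unigenes around it, while the myosin-named Unigene33718 went the other way in stretch 4. In the word list, Unigene19872 and Unigene18648 (RopGEF1) and Unigene27773 (CHUP1) were higher in stretch 3, like most unigenes there. Unigene28196 (RopGEF1), Unigene29868 (RopGEF2) and Unigene32875 (PIR) were lower in stretch 4, again like most around them. Unigene22338 (CHUP1) and Unigene21012 (PIR), both in stretch 3, went against their stretch. The stretch and the genotype effect cannot be told apart for single members, since no source used here says how the stretches arose.

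**Figure D4:**
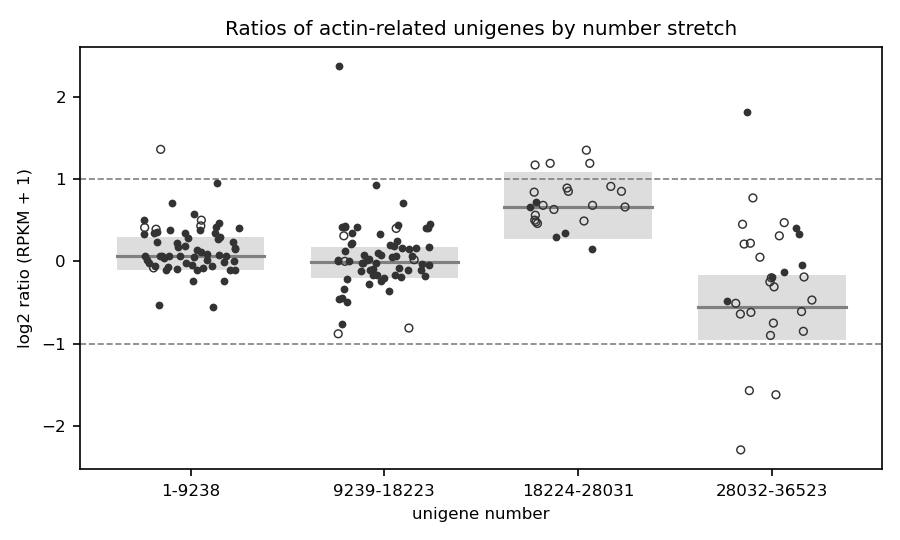
Log2 ratio of RPKM + 1 (y axis, mutant over wild type) of the members kept, as points, in each of the 4 stretches of unigene numbers (x axis), with boxes for the quartiles of all unigenes in the stretch. The members' median of 0.68 in stretch 3 lies near that of all unigenes, their median of -0.20 in stretch 4 lies near the upper edge of the box, and in the first stretches members lie around 0.

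Summed reads of vascular markers differed between the libraries as well, while their single unigenes went in both directions. Xylem markers (20 unigenes, mainly laccases and xylem-named proteins) summed to 4130 mutant and 1794 wild-type reads, 2.29-fold higher (2.17 to 2.42), with a median log2 ratio of 0.31 over the 19 kept. Of these 19, 5 were 2-fold higher (26.3%, beside 8.61% of all unigenes kept) and 3 lower (15.8%, beside 5.31%). The 8 kept unigenes with xylem in their names had a median of -0.19. Phloem protein 2 unigenes (10) summed to 2127 against 1514 reads, 1.4-fold higher (1.31 to 1.5), with a median of -0.06. A ratio above 0 was found for 5 of these 10. The medians are far smaller than the summed folds, so a few unigenes carry the sums. Their part in the differences of villins, ADF5, ARPC4, the SF3 unigene and the Rac-like GTPases was not tested.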

How the data were processed

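Poly(A) RNA of buds was sequenced in 1 mutant and 1 wild-type library. Per the file headers, the authors deposited raw read counts per unigene with the library totals. They also deposited RPKM, which recomputation from counts, lengths and totals matched in 100% of values within 1e-04. The other deposited column used was unigene length (bases). The strand setting, assembler, aligner and counter were not given in the sources used here, so near-identical copies and overlapping transcripts are uncertain.

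Names came from the deposited Swiss-Prot best hits (18809 unigenes, 52.6%, E-value at most 1e-05), and many hits lie in other species. The ratio used a pseudocount of 1 RPKM, which understates differences of low unigenes, and a minimum RPKM of 1. A call was a log2 ratio of at least 1 in size. Fold intervals were Clopper-Pearson, and for a count of 0 the lower limit of the interval was given. With 1 library per group no test between groups was made. Calculations used Python 3.11.15, pandas 2.3.3, numpy 2.4.6, scipy 1.17.1 and matplotlib 3.10.9. The 2-fold rule and the fold intervals were checked on simulated counts with counting error only. The 4-fold differences planted there were all in unigenes with at least 100 reads. Marker lists and number stretches were not part of that check.

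The members, roles and lists were chosen with earlier results of these data known. Named unigenes were all calls with at least 20 reads and, in each role, the deepest, the longest and the one with the largest ratio among those with at least 20 reads. This gave 31 unigenes, and others were named after their values were seen. Of the pathway list, 4 accidental word matches were removed after they were seen. Number stretches were found from drops in unigene length. Alternatives were other pseudocounts, minima, scalings, thresholds, depths, lengths and hit sources. Those by number stretch, hit strength and breadth of the rule were added after the data were seen.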

Additional observations from a re-analysis of the deposited data

How the results depend on the processing

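The median log2 ratio of the members kept its sign under every alternative run. It fell from 0.09 to 0.04 when ratios were centred on the median of all unigenes and to 0.04 with trimmed-mean scaling, by construction, and it lay between 0.06 and 0.10 otherwise. The count of 7 members at least 2-fold higher became 14 with a pseudocount of 0.1, 2 with a pseudocount of 5, 4 with a minimum RPKM of 5, 1 at 4-fold, 51 by the counting interval, 2 with at least 100 reads, 4 with at least 500 bases and 0 when each entry kept its longest unigene. The count of 3 lower became 7 with a pseudocount of 0.1 and 0 with one of 5, 1 at 4-fold, 28 by the counting interval, 0 with at least 100 reads and 0 when each entry kept its longest unigene. In the first 2 number stretches 2 were higher and 0 lower, and with an E-value of at most 1e-50 1 was higher and 1 lower. Apart from construction, the cause was not tested. No minimum and both scalings left 7 and 3.

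No paired analysis was possible because each group holds 1 library. Without replicates the spread between trees is unknown, and about 100 reads or more were needed for narrow intervals. Low unigenes therefore decide the 2-fold counts, and the distant best hits and the number stretches limit what a name and a direction stand for.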
